A study of Homo sapiens with 12 samples.

Results

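The genes described here build the entry and exit machinery of the endoplasmic reticulum (ER): the signal recognition particle and its receptor, the translocon, signal peptidase, the oligosaccharyltransferase, the COPII and COPI vesicle coats and the cargo receptors that travel between the ER and the Golgi apparatus. They were chosen by name, as 49 genes of these complexes, though with earlier results of these data known. Of these, 47 were measured, by 113 probe sets, among 19775 genes in all, and SEC61G and KDELR2 were not analysed here. A single probe set measured 16 of the members, and the other 31 had more than 1, up to 6.

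A protein made for secretion is recognised by the signal recognition particle while it is still being translated, and is handed at the ER membrane to the Sec61 channel. Signal peptidase then removes the signal sequence, and the oligosaccharyltransferase attaches a preassembled sugar chain to asparagine residues. COPII vesicles carry folded proteins towards the Golgi apparatus, and COPI vesicles bring receptors and escaped ER residents back. Plasma cells, the cells from which multiple myeloma arises, secrete large amounts of immunoglobulin and are known for a greatly enlarged ER.

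KMS-11 and KMS-34 are established human multiple myeloma cell lines. Each has a resistant derivative, named with the ending /Cfz and selected by rising doses of the proteasome inhibitor carfilzomib until it grew in 12 nM, and the RNA was taken after 1 week without the drug. Parental cells were never selected. All 4 groups grew in RPMI medium with 4% fetal bovine serum per the labels, and each was measured on 3 Affymetrix arrays. The derivatives are described as cultures and not as clones, and the labels do not say that the 3 samples of a group came from separate cultures. A p-value here therefore reflects just how far the samples scattered, which may be technical. For each gene that scatter is 1 estimate shared by all 4 groups, so a comparison within 1 line also depends on samples of the other.

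Values are on a log2 scale and centred for each probe set, so that they hold differences between arrays and no expression level. The levels of different genes, and the presence or absence of a transcript, could therefore not be read from them, and neither could the plasma cell identity of the lines. The KMS-34/Cfz replicate 1 array stood somewhat apart, with a mean correlation of 0.785 with the other arrays of its group across probe sets, against 0.868 and 0.842 for replicates 2 and 3 and 0.864 to 0.945 for the arrays of the other groups. Calls of members in resistant cells that changed when it was left out are given with both values.

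In both resistant derivatives members of the set fell and none passed the test in the other direction. In KMS-11/Cfz 8 of the 47 members were lower than in KMS-11 and 0 were higher by limma with an adjusted p under 0.05, where 1.94% of all genes fell and 1.63% rose. At an unadjusted p under 0.05 the members numbered 26 lower and 0 higher, where 6.93% of all genes were lower and 6.48% higher. In KMS-34/Cfz 14 members were lower than in KMS-34 and 0 were higher, where 4.69% of all genes fell and 5.4% rose, and at an unadjusted p under 0.05 the members numbered 20 lower and 2 higher (10.7% and 11.1% of all genes). The falls were small. SEC31A fell by 28.5% in KMS-34/Cfz, the largest fall there, and SSR3 fell by 23.1% in KMS-11/Cfz, the largest fall in that line.

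The median log2 fold change of the 47 members was -0.15 in KMS-11/Cfz, against 0.00247 over all genes tested, and -0.07 in KMS-34/Cfz, against -0.01 over all genes. Values below 0 were seen for 43 members in KMS-11/Cfz, or 91.5%, where 49% of all genes were below 0. In KMS-34/Cfz 35 members were below 0, or 74.5%, against 53.6% of all genes. All 3 resistant arrays lay below all 3 parental arrays for 32 members in KMS-11/Cfz, as they did for 13.7% of all genes, and for 18 members in KMS-34/Cfz, as for 10.5% of all genes. All resistant arrays lay above the parental ones for OST4 alone in KMS-11/Cfz and for 0 members in KMS-34/Cfz, as they did for 13.1% and 10.2% of all genes. In RNA from whole cultures, fewer cells with a transcript and less of it per cell cannot be told apart.

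**Figure D1:**
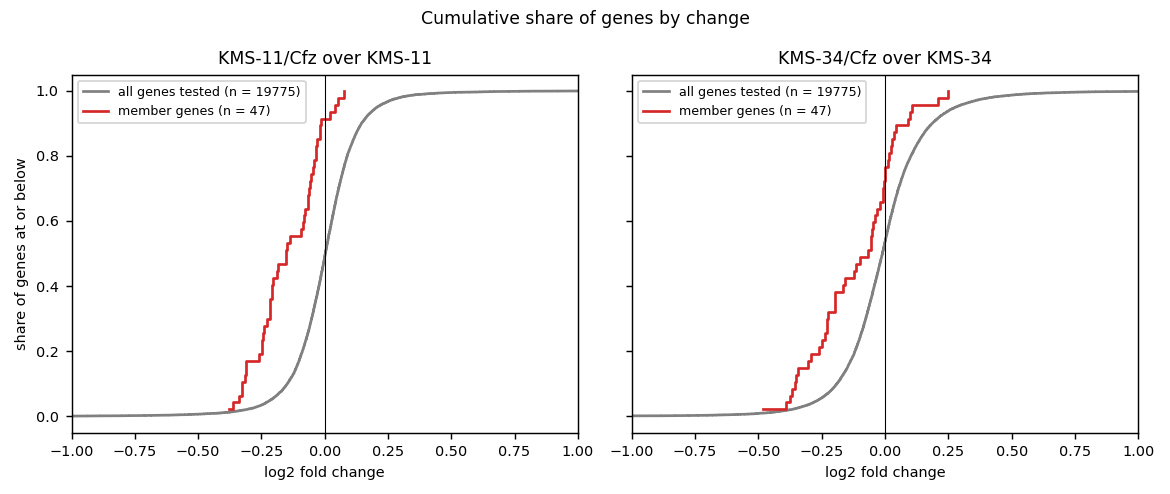
The cumulative share of genes (vertical axis) with a log2 fold change at or below the value on the horizontal axis, for the 47 member genes (red) and all 19775 genes tested (grey), with KMS-11/Cfz over KMS-11 on the left and KMS-34/Cfz over KMS-34 on the right. Genes beyond the axis limits of -1 and 1 are not drawn. Both red curves run to the left of the grey ones over most of their length, with medians of -0.15 on the left and -0.07 on the right.

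The counts depended on single arrays, and the share of all genes called in each of these fits was not computed. Leaving out KMS-11/Cfz replicate 1, 2 or 3 left 3, 3 and 2 members lower in KMS-11/Cfz, and leaving out KMS-11 replicate 1, 2 or 3 left 5, 2 and 3. In KMS-34/Cfz the number of members past the test lay between 10 and 13 when any 1 of the 12 arrays was left out, and was 13 without its replicate 1, of which 12 had fallen and MCFD2 had risen (from 0.25, adjusted p = 0.065, to 0.31, adjusted p = 0.0197). The members lost were DDOST (from -0.20, adjusted p = 0.0467, to -0.16, adjusted p = 0.0852) and STT3B (from -0.26, adjusted p = 0.0459, to -0.27, adjusted p = 0.0509). Without that array the KMS-11/Cfz count was 12, since all groups share 1 estimate of the spread. The values there stayed the same, and the adjusted p moved from 0.0559 to 0.0224 for RPN1, from 0.0534 to 0.0368 for SEC23B, from 0.0534 to 0.0288 for SEC24D and from 0.071 to 0.0408 for TMED2. Without replicate 1 of both KMS-34 groups, an omission chosen after seeing the data, 10 members fell in KMS-34/Cfz, with SEC61A1, SSR3, DDOST, STT3B and SEC24D no longer called and SRPRA newly called, and 14 fell in KMS-11/Cfz.

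Averaged over both lines, with each line compared with its own parental cells, 20 members fell and 0 rose, against 3.86% and 3.99% of all genes. At an unadjusted p under 0.05 in limma 25 were lower and 0 higher, against 9.72% and 9.69%. This average uses the same arrays as the comparisons within the lines. SSR3 had the lowest adjusted p, 0.000483, with a log2 fold change of -0.31 ± 0.04 (SE), and SEC24D the largest change, -0.35 ± 0.06. It called SRP68 at -0.16 (adjusted p = 0.0388) and SRPRA at -0.22 (adjusted p = 0.0182), which passed in neither line alone, and it did not call SAR1A, which fell in KMS-34/Cfz.

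**Figure D2:**
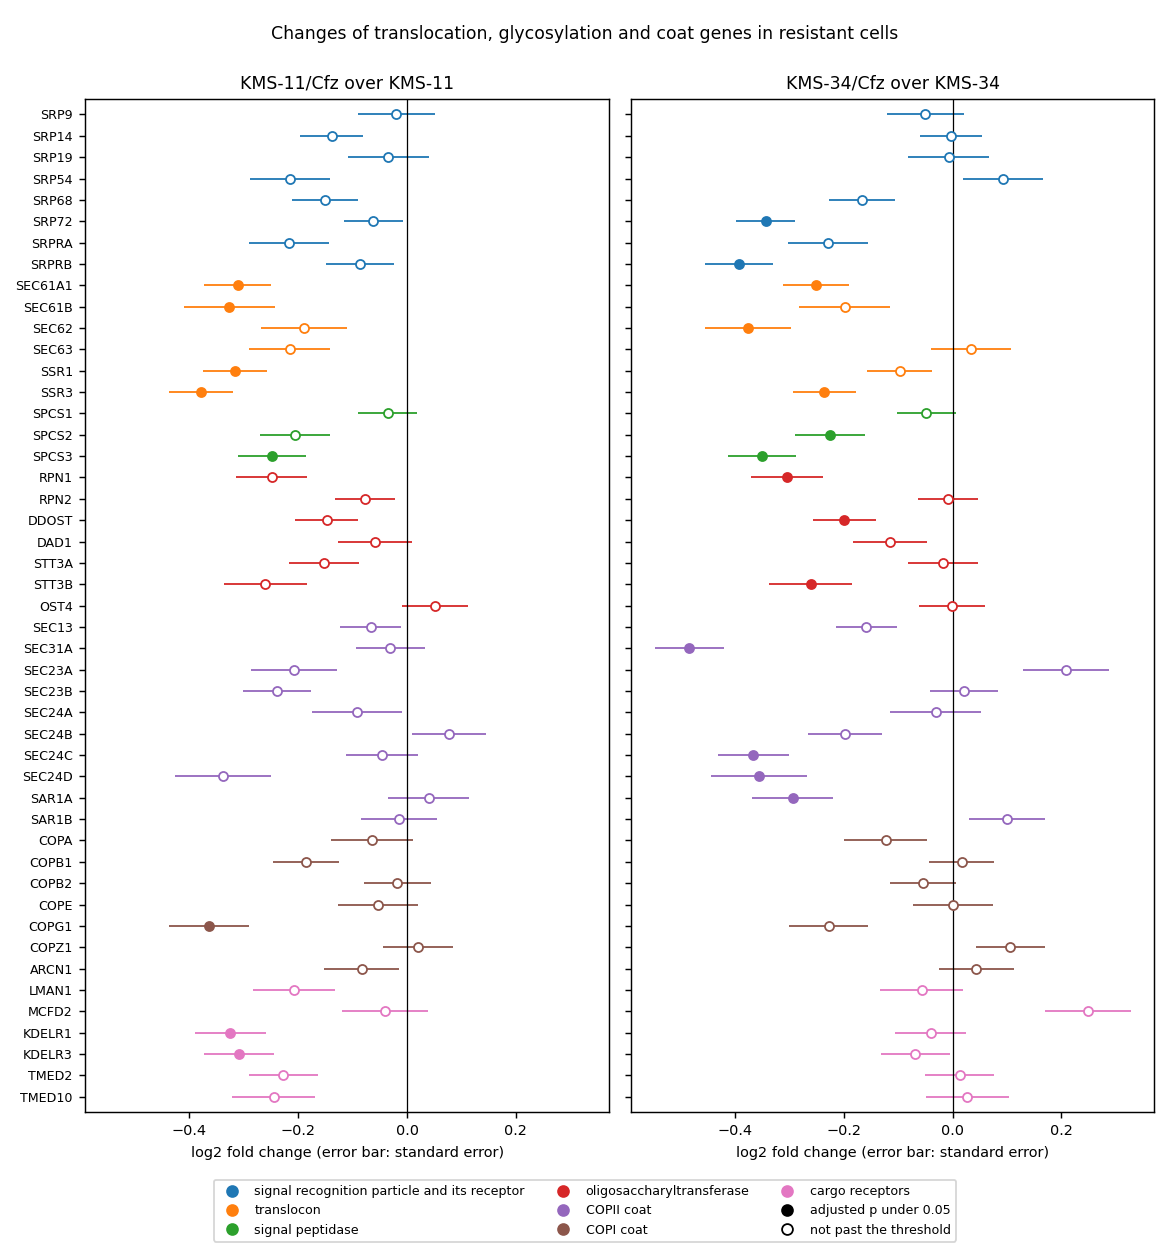
The log2 fold change of each of the 47 members (horizontal axis, error bar the standard error) in KMS-11/Cfz over KMS-11 (left) and in KMS-34/Cfz over KMS-34 (right), with the genes in rows and the complexes by colour. Filled points passed an adjusted p of 0.05, 8 on the left and 14 on the right, all of them below 0.

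Because members fell in both lines, the DNA in front of their genes was searched for elements of the unfolded protein response, the pathway by which cells enlarge ER capacity. RefSeq windows of 300 bases (250 before to 50 after a transcription start, GRCh38.p14) were found for 43 of the 49 members, 56 windows in all since some genes have several starts. The core of the unfolded protein response element, TGACGTGG on either strand, which XBP1 and ATF6 are known to bind, occurred in 10 of the 56 windows (17.9%), those of COPA, COPB1, COPB2, KDELR3, SEC23A, SEC24A, SEC62, SRP19 and SSR3. It occurred in 0.729% of all 35116 windows and in 0.852% of the 21490 windows of genes measured on the arrays. The longer ER stress response element, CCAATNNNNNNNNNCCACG, and its second form, ATTGGNCCACG, were in 0 of the member windows, and in 0.0769% and 0.0541% of all windows. A match is a run of letters and no evidence of binding.

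The matches that lay before the start are given here with up to 20 bases on each side, on the strand of the gene and 5′ to 3′, since this run of letters was found more often in the member windows than in all windows. Capitals mark the core or its reverse complement. KDELR3, SEC62 and SSR3 are the genes among them that fell in at least 1 line. The windows of COPB1 (chr11:14499832-14499879, minus strand), COPB2 (chr3:139389816-139389863, minus strand), SSR3 (chr3:156554139-156554186, minus strand), SEC62 (chr3:169966770-169966806, plus strand), KDELR3 (chr22:38468030-38468077, plus strand), SEC24A (chr5:134648586-134648633, plus strand) and SRP19 (chr5:112861155-112861202, plus strand) are promoter sequence upstream of the annotated starts.
SSR3: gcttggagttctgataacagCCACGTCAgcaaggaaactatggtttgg
SEC62: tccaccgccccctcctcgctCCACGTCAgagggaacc
KDELR3: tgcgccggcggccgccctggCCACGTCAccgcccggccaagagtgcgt
COPB1: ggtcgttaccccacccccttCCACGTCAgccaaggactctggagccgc
COPB2: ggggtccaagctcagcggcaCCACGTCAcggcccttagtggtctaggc
SRP19: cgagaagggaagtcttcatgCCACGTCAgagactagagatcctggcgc
SEC24A: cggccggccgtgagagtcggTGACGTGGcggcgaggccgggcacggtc

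The core begins 41 bases before the start in SSR3, 17 in SEC62, 46 in KDELR3 and 48 in COPB1, and farther upstream in SRP19 (112), COPB2 (163) and SEC24A (179). Of the 16 fallen members with a window, 3 held it. By window, the core was in 3 of the 22 of fallen members and in 7 of the 33 of the other measured members. Which members count as fallen depended on the processing, and the part of the core in the falls was not tested. Among the genes with the core the changes varied. SSR3 fell in both lines, SEC62 in KMS-34/Cfz and KDELR3 in KMS-11/Cfz, and the others passed in neither line. In the derivatives of KMS-11 and of KMS-34 COPB1 stood at -0.19 and 0.02, SEC23A at -0.21 and 0.21 and COPA at -0.06 and -0.12. There COPB2 stood at -0.02 and -0.05, SRP19 at -0.03 and -0.01 and SEC24A at -0.09 and -0.03. The change of SEC23A differed between the lines by limma (adjusted p = 0.0437).

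The translocon genes had the lowest median of the 7 groups in KMS-11/Cfz. Of 6 measured, 4 fell in KMS-11/Cfz (median -0.31), and 3 fell in KMS-34/Cfz (median -0.22), against 1.94% and 4.69% of all genes. SSR3 encodes the gamma subunit of the translocon-associated protein complex, which sits beside the channel and helps certain signal sequences to enter. Given as log2 values minus the parental mean of the line, as are all array values that follow, its 3 KMS-11/Cfz arrays read -0.38, -0.38 and -0.38 against -0.02, 0.04 and -0.02 in KMS-11. The change was -0.38 ± 0.06 (SE, n = 3 against 3, limma adjusted p = 0.00218). Its KMS-34/Cfz arrays read -0.29, -0.19 and -0.24 against -0.02, 0.08 and -0.06, a change of -0.24 ± 0.06 (adjusted p = 0.0193). In neither line did the groups overlap, and all 4 probe sets of the gene were below 0 in both, with 3 past the test alone in KMS-11/Cfz, against 1 in KMS-34/Cfz. When the probe set of largest variance stood for the gene, both calls were lost (adjusted p = 0.257 and 0.284), and the KMS-34/Cfz call was also lost without KMS-34 replicate 2 (adjusted p = 0.0682).

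SEC61A1, the channel-forming subunit itself, fell in both lines too. The KMS-11/Cfz arrays read -0.28, -0.30 and -0.35 and the KMS-11 arrays -0.07, 0.05 and 0.02, a change of -0.31 ± 0.06 (adjusted p = 0.0122). In KMS-34/Cfz they read -0.34, -0.24 and -0.18, all below the parental range of -0.02 to 0.02, a change of -0.25 ± 0.06 (adjusted p = 0.0185). The first call was lost without replicate 2 or 3 of either KMS-11 group (adjusted p up to 0.0722), and the second without replicate 2 of KMS-34/Cfz or replicate 3 of KMS-34 (up to 0.0587). SSR1, the alpha subunit of the same complex as SSR3, read -0.31, -0.32 and -0.32 in KMS-11/Cfz with parental arrays from -0.02 to 0.03, and fell by 19.7% (log2 -0.32 ± 0.06, adjusted p = 0.00885). It kept this call in all 12 fits that left out 1 array. In KMS-34/Cfz it stood at -0.10 ± 0.06 (adjusted p = 0.399) and its arrays overlapped those of KMS-34. The change of SSR1 was not shown to differ between the lines (difference 0.22, 95% interval 0.04 to 0.40, adjusted p = 0.164).

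SEC62, which serves with SEC63 in the entry of proteins after their translation, fell in KMS-34/Cfz. Its arrays read -0.53, -0.31 and -0.29 there, with replicate 1 the lowest, against -0.04, 0.14 and -0.09 in KMS-34 (change -0.38 ± 0.08, adjusted p = 0.00789). Without replicate 1 of both KMS-34 groups it was still called, and 4 of its 5 probe sets passed alone. With only the 2 KMS-34 groups fitted in limma it was no longer called (adjusted p = 0.0722). In KMS-11/Cfz it stood at -0.19 (adjusted p = 0.293). SEC63 was at -0.22 in KMS-11/Cfz (adjusted p = 0.163) and at 0.03 in KMS-34/Cfz. SEC61B, a small channel subunit, passed narrowly in KMS-11/Cfz (-0.33 ± 0.08, adjusted p = 0.0488), where its arrays read -0.35, -0.22 and -0.41. Its pair of probe sets stood at -0.52 and -0.13 and neither passed alone, and the call was lost in 10 of the 12 fits that left out 1 array, with an adjusted p of up to 0.22.

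**Figure D3:**
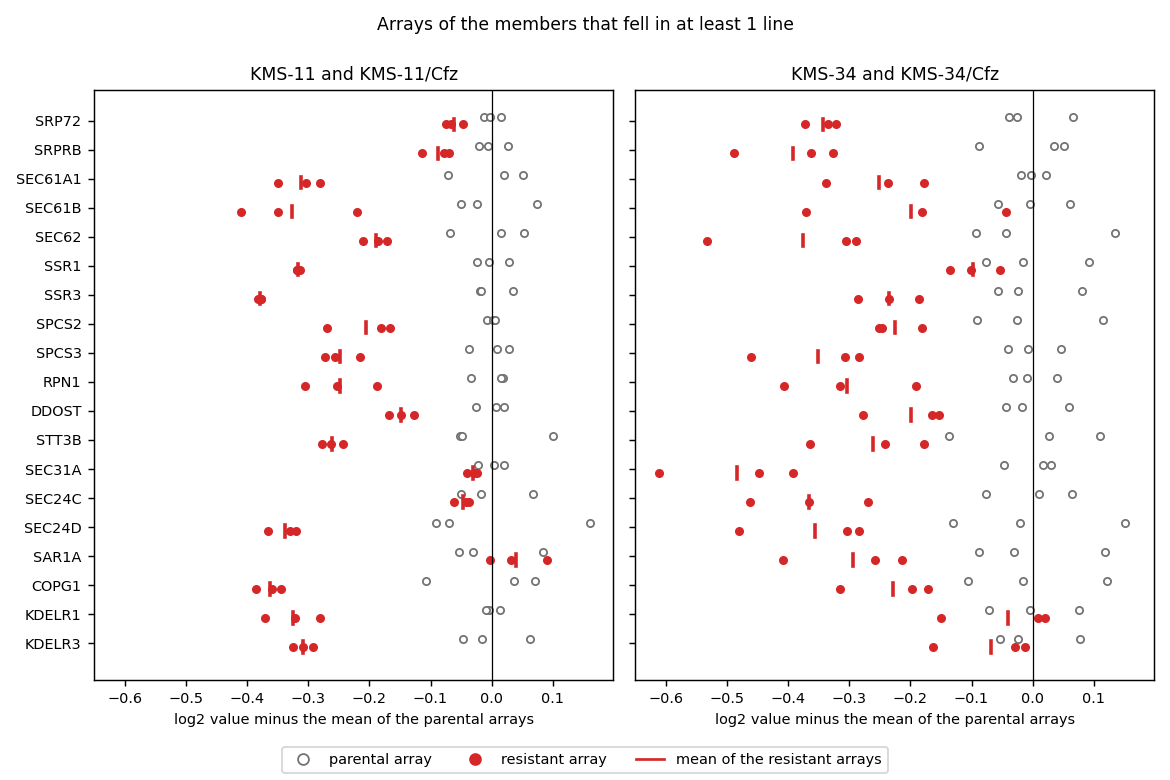
Each array of the 19 members that fell in at least 1 line, as log2 value minus the mean of the 3 parental arrays of the same line (horizontal axis), for KMS-11 and KMS-11/Cfz (left) and KMS-34 and KMS-34/Cfz (right), with parental arrays as open grey and resistant arrays as filled red points and a red bar at the resistant mean. SSR3, SEC61A1 and SPCS3 lie clear of the parental arrays and passed the test on both sides, whereas SEC31A and SRP72 lie far below only in KMS-34/Cfz.

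Signal peptidase had 3 measured subunits. SPCS3, an essential noncatalytic subunit, fell in both lines. Its arrays read -0.26, -0.22 and -0.27 in KMS-11/Cfz against 0.01, 0.03 and -0.04 in KMS-11 (change -0.25 ± 0.06, adjusted p = 0.0444). In KMS-34/Cfz they read -0.46, -0.28 and -0.31 against -0.01, 0.05 and -0.04 (change -0.35 ± 0.06, adjusted p = 0.00272). The KMS-34/Cfz call held in all 12 fits that left out 1 array, and the KMS-11/Cfz call in 3 of them, with an adjusted p of up to 0.181 in the others. SPCS2, an accessory subunit, read -0.18, -0.25 and -0.25 in KMS-34/Cfz (change -0.23 ± 0.06, adjusted p = 0.0402, kept in 2 of 12 such fits, adjusted p up to 0.135) and stood at -0.21 in KMS-11/Cfz (adjusted p = 0.118), where all its arrays were also below the parental ones. The SPCS2 call was also lost with only the 2 KMS-34 groups fitted, aligned array medians or the probe set of largest variance (limma adjusted p up to 0.915). SPCS1 was at -0.04 in KMS-11/Cfz, and at -0.05 in KMS-34/Cfz.

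Of the signal recognition particle and its receptor, 0 of 8 genes passed in KMS-11/Cfz and 2 fell in KMS-34/Cfz (4.69% of all genes). In KMS-11/Cfz 4 of 8 were lower at an unadjusted p under 0.05 by limma and 0 higher, against 6.93% and 6.48% of all genes. SRPRB, the membrane-anchored receptor subunit, read -0.49, -0.36 and -0.33 in KMS-34/Cfz against -0.09, 0.04 and 0.05 in KMS-34. The change was -0.39 ± 0.06 (adjusted p = 0.00132) and held in every fit that left out 1 array. In KMS-11/Cfz it stood at -0.09 ± 0.06 (adjusted p = 0.672).

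SRP72, which with SRP68 forms the largest protein pair of the particle, read -0.37, -0.32 and -0.34 in KMS-34/Cfz against -0.04, 0.07 and -0.03 (change -0.34 ± 0.05, adjusted p = 0.00124). Of its 6 probe sets 5 passed alone. The 20 measured genes nearest to SRP72 on chromosome 4 had a median of -0.26 in the same comparison, and the part of this regional shift in the fall of SRP72 was not tested. The other genes of the particle, SRP9, SRP14, SRP19, SRP54 and SRP68, and the receptor subunit SRPRA ranged from -0.22 (SRPRA) to -0.02 (SRP9) in KMS-11/Cfz and from -0.23 (SRPRA) to 0.09 (SRP54) in KMS-34/Cfz. SRPRA had all 3 KMS-11/Cfz arrays (-0.23, -0.18 and -0.24) below the KMS-11 arrays (-0.01, 0.03 and -0.03).

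Of the oligosaccharyltransferase, 0 of 7 genes passed in KMS-11/Cfz and 3 fell in KMS-34/Cfz (4.69% of all genes). In KMS-11/Cfz 4 of 7 were lower at an unadjusted p under 0.05 by limma and 0 higher, against 6.93% and 6.48% of all genes. RPN1, a subunit that holds proteins near the active site, read -0.41, -0.32 and -0.19 in KMS-34/Cfz against -0.01, -0.03 and 0.04 in KMS-34 (change -0.30 ± 0.07, adjusted p = 0.00887). In KMS-11/Cfz it read -0.19, -0.25 and -0.30, all below the parental arrays, and its change of -0.25 ± 0.07 had an adjusted p of 0.0559. With only the 2 KMS-34 groups fitted in limma, the KMS-34/Cfz call of RPN1 was lost (adjusted p = 0.0933). The 2 catalytic subunits differ in when they act, STT3A during translocation and STT3B on sites that were missed. STT3B read -0.24, -0.18 and -0.36 in KMS-34/Cfz against 0.03, 0.11 and -0.14 (change -0.26 ± 0.08, adjusted p = 0.0459) and stood at the same -0.26 in KMS-11/Cfz (adjusted p = 0.0889). STT3A stood at -0.02 in KMS-34/Cfz and -0.15 in KMS-11/Cfz, and the difference between STT3A and STT3B was not tested. DDOST, a structural subunit, was at -0.20 ± 0.06 in KMS-34/Cfz (adjusted p = 0.0467). The DDOST call was lost in all 12 fits that left out 1 array (adjusted p up to 0.134) and the STT3B call in 11 of them (up to 0.15). DAD1, RPN2 and OST4 ranged from -0.08 to 0.05 in KMS-11/Cfz and from -0.12 to -0.000807 in KMS-34/Cfz.

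Of the COPII coat, 0 of 10 genes passed the test in KMS-11/Cfz and 4 fell in KMS-34/Cfz (4.69% of all genes). In KMS-11/Cfz 3 of 10 were lower at an unadjusted p under 0.05 by limma and 0 higher, against 6.93% and 6.48% of all genes. SEC31A, which with SEC13 makes the outer cage of the vesicle, read -0.61, -0.45 and -0.39 in KMS-34/Cfz against -0.05, 0.03 and 0.02 in KMS-34. Its change of -0.48 ± 0.06 (adjusted p = 0.000314) was called in all 12 fits that left out 1 array, and both of its probe sets passed alone. In KMS-11/Cfz it read -0.02, -0.03 and -0.04, a change of -0.03 ± 0.06 (adjusted p = 0.933). SEC13 stood at -0.16 in KMS-34/Cfz (adjusted p = 0.104) and -0.07 in KMS-11/Cfz.

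The SEC24 proteins of the inner coat choose the cargo, and the 4 paralogs gave different values. SEC24C read -0.46, -0.37 and -0.27 in KMS-34/Cfz against -0.08, 0.01 and 0.06 (change -0.37 ± 0.07, adjusted p = 0.00302) and stood at -0.05 in KMS-11/Cfz. SEC24D read -0.48, -0.28 and -0.30 in KMS-34/Cfz against -0.02, 0.15 and -0.13 (change -0.36 ± 0.09, adjusted p = 0.0196), and its change in KMS-11/Cfz was nearly the same size, -0.34 ± 0.09, with arrays at -0.37, -0.33 and -0.32 and an adjusted p of 0.0534. SEC24B stood at -0.20 in KMS-34/Cfz and 0.08 in KMS-11/Cfz, and SEC24A at -0.03 and -0.09. Neither SEC24A nor SEC24B passed in either line. The call of SEC24D was lost without KMS-34 replicate 2 (adjusted p = 0.078). It was also lost with only the 2 KMS-34 groups fitted and with the probe set of largest variance (limma adjusted p up to 0.412).

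SAR1A and SAR1B encode the small GTPase that starts coat assembly, and SEC23A and SEC23B the protein that makes it hydrolyse GTP. SAR1A read -0.41, -0.26 and -0.21 in KMS-34/Cfz against -0.09, 0.12 and -0.03 in KMS-34 (change -0.29 ± 0.07, adjusted p = 0.0213). It stood at 0.04 in KMS-11/Cfz, and without KMS-34 replicate 2 its call was lost (adjusted p = 0.0818). The SAR1A call was also lost with only the 2 KMS-34 groups fitted and with the probe set of largest variance (limma adjusted p up to 0.259). SAR1B averaged 0.10 in KMS-34/Cfz (adjusted p = 0.474), but its 5 probe sets were at odds: 2 of them rose, by 0.42 and 0.37 (adjusted p = 0.00707 and 0.0191), and the other 3 lay between -0.15 and -0.06. SEC23A read 0.12, 0.18 and 0.33 in KMS-34/Cfz against -0.07, 0.14 and -0.07, a change of 0.21 ± 0.08 (adjusted p = 0.131), and -0.19, -0.19 and -0.24 in KMS-11/Cfz against 0.05, 0.07 and -0.12, a change of -0.21 ± 0.08 (adjusted p = 0.23). SEC23B stood at -0.24 in KMS-11/Cfz (adjusted p = 0.0534) and 0.02 in KMS-34/Cfz. Without KMS-34 replicate 2, SEC23A passed as a rise in KMS-34/Cfz (0.28, adjusted p = 0.0489).

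Of the COPI coat, 1 of 7 genes fell in KMS-11/Cfz (1.94% of all genes), and 0 passed in KMS-34/Cfz. At an unadjusted p under 0.05, limma, 1 of 7 was lower in KMS-34/Cfz, against 10.7% of all genes. The gene that fell in KMS-11/Cfz was COPG1, which encodes the gamma-1 subunit of the coat complex. Its KMS-11/Cfz arrays read -0.36, -0.39 and -0.35 against -0.11, 0.07 and 0.04 in KMS-11 (change -0.36 ± 0.07, adjusted p = 0.0141), and the call was lost in 5 of the 12 fits that left out 1 array (adjusted p up to 0.0767). In KMS-34/Cfz it stood at -0.23 ± 0.07 (adjusted p = 0.0696), with all 3 arrays below the parental ones. The other 6 subunits, from COPA to ARCN1, ranged from -0.19 (COPB1) to 0.02 (COPZ1) in KMS-11/Cfz and from -0.12 (COPA) to 0.11 (COPZ1) in KMS-34/Cfz.

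Of the cargo receptors, 2 of 6 fell in KMS-11/Cfz (1.94% of all genes), and 0 passed in KMS-34/Cfz. At an unadjusted p under 0.05, limma, 0 were lower and 1 higher in KMS-34/Cfz, against 10.7% and 11.1% of all genes. KDELR1 and KDELR3 encode receptors that return escaped chaperones to the ER. KDELR1 read -0.32, -0.28 and -0.37 in KMS-11/Cfz against parental arrays from -0.01 to 0.01 (change -0.32 ± 0.06, adjusted p = 0.0131). In KMS-34/Cfz it stood at -0.04 with overlapping arrays. KDELR3 read -0.33, -0.29 and -0.31 in KMS-11/Cfz against -0.05, 0.06 and -0.02 (change -0.31 ± 0.06, adjusted p = 0.0154). Its 3 probe sets were far apart there, at -0.81, -0.26 and 0.15, and the first of these alone passed (adjusted p = 0.000431). Of the 12 fits that left out 1 array, 4 lost the call of KDELR1 (adjusted p up to 0.0757) and 5 that of KDELR3 (up to 0.0842), in each case when the array was from KMS-11 or KMS-11/Cfz. TMED2 (-0.23, adjusted p = 0.071) and TMED10 (-0.25, adjusted p = 0.117), p24 proteins of both coats, and LMAN1 (-0.21, adjusted p = 0.199), a lectin that carries glycoproteins forward, had all KMS-11/Cfz arrays below the KMS-11 arrays without passing.

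MCFD2, the soluble partner of LMAN1, had the highest value of the set in KMS-34/Cfz. Its arrays read 0.13, 0.26 and 0.36 against -0.09, 0.14 and -0.05 in KMS-34, a change of 0.25 ± 0.08 with an adjusted p of 0.065. Fits that left out replicate 1 of KMS-34/Cfz or replicate 2 of KMS-34 called it as a rise (0.31 and 0.32, adjusted p = 0.0197 and 0.0251). LMAN1 itself stood at -0.06 there. In KMS-11/Cfz MCFD2 was at -0.04, and 1 of its 3 probe sets rose alone in KMS-34/Cfz (0.35, adjusted p = 0.0134).

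Whether a member changed differently in the lines was tested as the KMS-34 change minus the KMS-11 change. By this test 2 members were lower and 1 was higher in the KMS-34 comparison, where 2.74% and 3.7% of all genes were lower and higher. SEC31A differed by -0.45 ± 0.09 (adjusted p = 0.00892), SRP72 by -0.28 ± 0.08 (adjusted p = 0.0468) and SEC23A by 0.42 ± 0.11 (adjusted p = 0.0437). The SEC31A difference was called in all 12 fits that left out 1 array, with an adjusted p of up to 0.0289, that of SEC23A in 3 and that of SRP72 in 1. SRPRB (-0.31, adjusted p = 0.0601), SEC24C (-0.32, adjusted p = 0.0616), SAR1A (-0.33, adjusted p = 0.0827) and KDELR1 (0.28, adjusted p = 0.0915) came next and did not pass. Without KMS-34/Cfz replicate 1 the difference of KDELR1 did (0.34, adjusted p = 0.0207). For all 6 cargo receptors the difference lay above 0, between 0.15 and 0.29, where 53.6% of all genes lay below 0. At an unadjusted p under 0.05 5 of the 6 were higher and 0 lower, against 9.73% and 9.03% of all genes, and 0 passed after adjustment in limma.

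Only SEC61A1, SPCS3 and SSR3 passed in both lines, 3 of the 47 members (6.38%), where 0.405% of all genes fell in both. With only the 2 groups of KMS-34 fitted in limma, all 3 lost the KMS-34/Cfz call. The adjusted p was then 0.147 for SEC61A1 and 0.0519 for SPCS3. The 2 comparisons share no array, but they do share 1 estimate of the spread. Over the 47 members the changes in the 2 lines had a Pearson r of 0.153 and a Spearman rho of 0.192. This is a description across genes that are not independent of each other. Over all 19775 genes r was 0.04 and rho 0.02. Both changes were below 0 for 32 members (68.1%) and both above 0 for 1 (2.13%), against 26.2% and 23.5% of all genes.

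**Figure D4:**
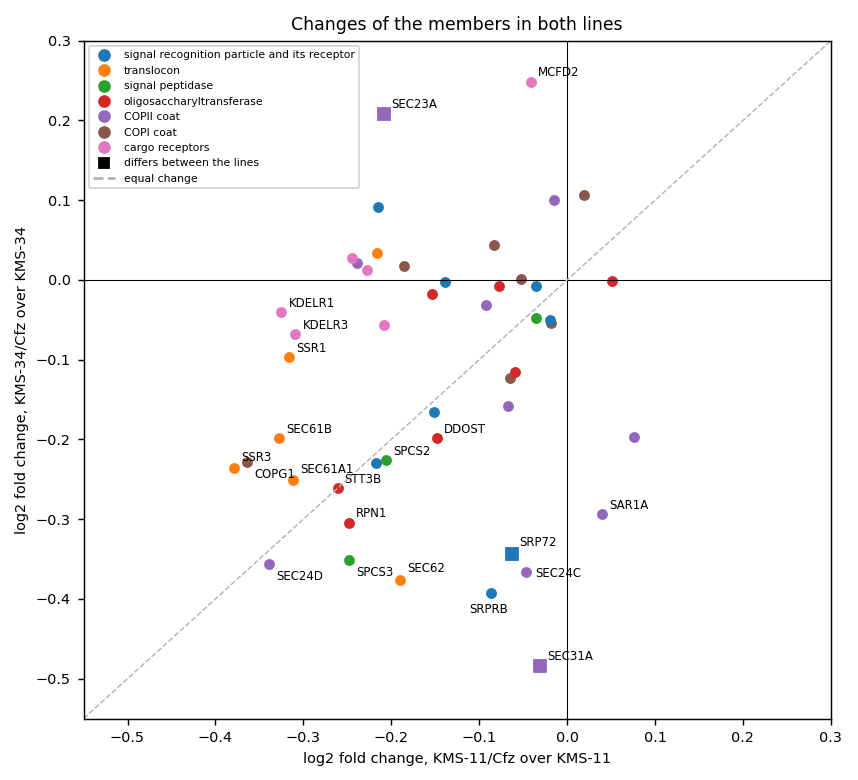
The log2 fold change of each member, in KMS-11/Cfz on the horizontal axis and KMS-34/Cfz on the vertical axis, coloured by complex, with squares for the 3 members whose change differed between the lines and a dashed line of equal change. Most points, 32 of 47, lie below 0 on both axes. SEC31A and SRP72 lie below the dashed line and SEC23A above it.

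By chromosome, in KMS-34/Cfz 6 of the 10 measured members on chromosome 3 fell, as did 4 of the 5 on chromosome 4 and 2 of the 2 on chromosome 10. Of all genes measured on these chromosomes 11.3%, 12% and 12.4% fell, with a median change of -0.06, -0.05 and -0.07. On chromosome 1, where 12.8% of all genes fell, 1 of 3 members did, and on chromosome 11, where 3.15% of all genes fell, 1 of 5. On the other 12 chromosomes that hold members 0 of 22 fell, and the share of all genes that fell on them lay between 0.66% and 3.61%. Whether the falls of members went with the chromosome was not tested. Around the fallen members, the median of the nearest measured genes (18 to 20 for each) was -0.18 for SEC24C, -0.14 for SEC61A1, -0.11 for SAR1A and -0.11 for SEC31A, beside the -0.26 for SRP72 given above. It was 0.01 for SEC24D, 0.01 for SPCS3, -0.00467 for SRPRB and -0.05 for SEC62, whose own changes lay between -0.39 and -0.35. In KMS-11/Cfz the neighbours of the 8 fallen members had medians between -0.04 and 0.05. The part of a regional shift in these falls was not tested.

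The unselected lines differed from each other in 31 members, more than either differed from its derivative in. In parental KMS-34 17 members were higher and 14 lower than in parental KMS-11, where 21.6% of all genes were higher and 20.5% lower. The largest differences were in the COPII coat. SEC24A was 1.53 ± 0.08 higher on the log2 scale (2.88-fold, adjusted p = 2.67e-09) and SAR1A 1.50 ± 0.07 higher (2.83-fold, adjusted p = 9.29e-10). These are means of 3 probe sets each that were far apart, from 0.91 to 2.25 and from 0.69 to 2.43, though all passed alone. SEC24C was 0.88 higher, while SEC24B and SEC24D were 0.68 and 0.59 below KMS-11 (log2 differences of -0.68 and -0.59). The 3 probe sets of SEC24D lay between -1.29 and -0.06, and 2 of them passed alone. SEC23A, SEC23B and SEC31A also read lower in KMS-34, with differences of -0.57, -0.76 and -0.82.

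Outside the coat, signal peptidase was higher in KMS-34 for all 3 subunits (SPCS1 0.27, SPCS2 0.91 and SPCS3 0.35), and so were SSR3 (0.89), SRPRB (0.69) and OST4 (0.66). KDELR1 (-0.86), SRP72 (-0.85), SEC61B (-0.65) and COPA (-0.45) were lower. Relative to the mean of KMS-11, SEC31A lay between -0.87 and -0.79 in the KMS-34 arrays and at -1.43, -1.27 and -1.21 in KMS-34/Cfz, and SRP72 lay between -0.89 and -0.78 and at -1.22, -1.17 and -1.18. The transcripts of SEC31A and SRP72 were thus already lower in parental KMS-34 and lower again in its derivative. SAR1A, by contrast, lay between 1.41 and 1.62 in KMS-34 and at 1.09, 1.24 and 1.29 in KMS-34/Cfz, still above KMS-11. These comparisons share the KMS-34 arrays.

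**Figure D5:**
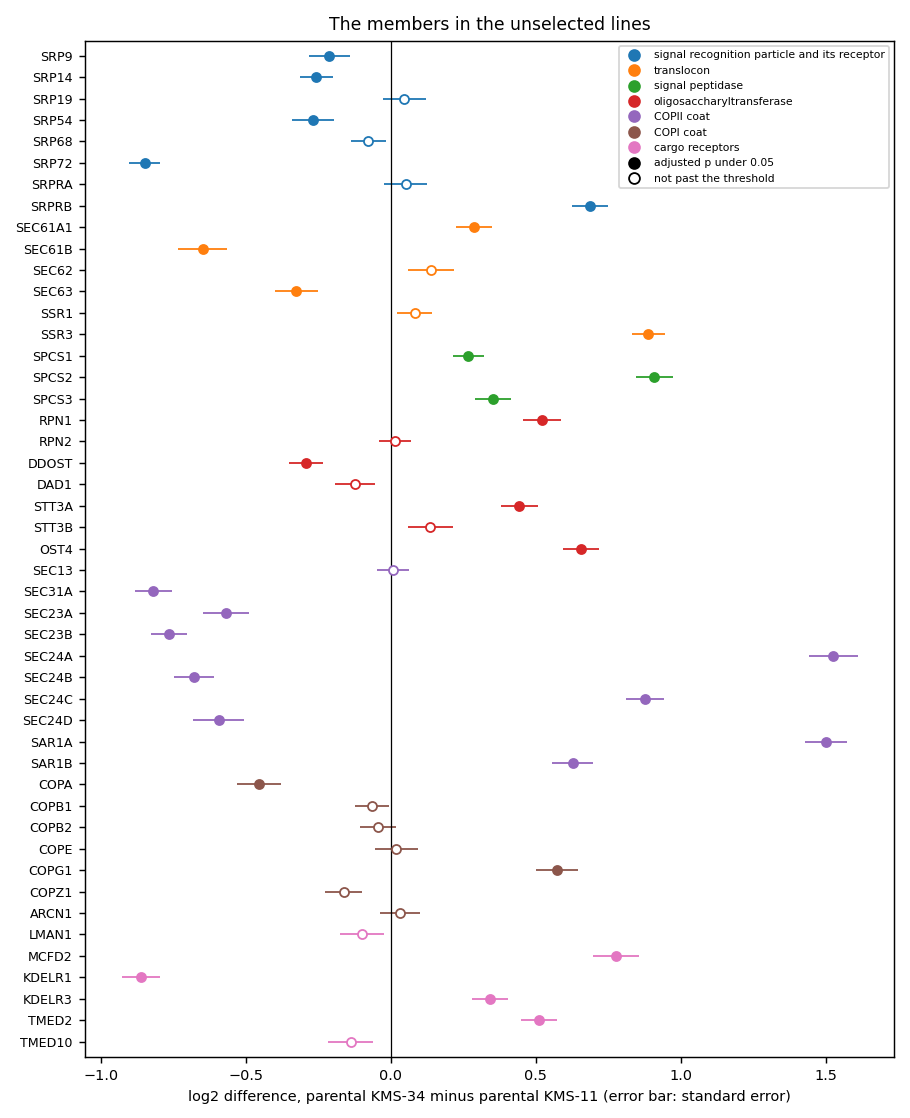
The log2 difference between parental KMS-34 and parental KMS-11 for each of the 47 members (error bar the standard error), with the complexes by colour and filled points past an adjusted p of 0.05. Of the filled points, 17 are above 0, led by SEC24A at 1.53 and SAR1A at 1.50, and 14 below, led by KDELR1 at -0.86.

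Partner genes outside the set were taken from 9 lists of 163 genes, of which 153 were measured. In KMS-11/Cfz 10 of them (6.54%) fell and 0 rose by limma, against 1.94% and 1.63% of all genes. At an unadjusted p under 0.05, 26 were lower and 4 higher, against 6.93% and 6.48% of all genes. In KMS-34/Cfz 19 (12.4%) fell and 4 (2.61%) rose, against 4.69% and 5.4%. At that unadjusted p 41 were lower and 16 higher, against 10.7% and 11.1%. Of 17 other genes of translocation and signal peptidase, 5 fell in KMS-11/Cfz, whereas 3 did in KMS-34/Cfz. SSR2, the beta subunit of the complex of SSR1 and SSR3, fell in both lines (-0.22 and -0.40, adjusted p = 0.0346 and 0.000335). HSPA13 (-0.41), HYOU1, an ER chaperone (-0.32), and TRAM2 (-0.31) were lower in KMS-11/Cfz together with SEC11C, a catalytic subunit of signal peptidase (-0.28). TMCO1 (-0.50, adjusted p = 5.53e-05) and TMEM147 (-0.31) were lower in KMS-34/Cfz. Among 16 genes of tail-anchor insertion and the ER membrane protein complex, 0 passed in KMS-11/Cfz by limma (2 at an unadjusted p under 0.05), while EMC3 fell and EMC9 rose in KMS-34/Cfz (-0.21 and 0.34).

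The sugar chain that the oligosaccharyltransferase transfers is built on the lipid dolichol. Of 24 measured genes of that synthesis, 4 (16.7%) fell in KMS-34/Cfz, where 4.69% of all genes fell. These were the mannosyltransferases ALG3 (-0.51, adjusted p = 0.000542) and ALG2 (-0.27), and ALG14 (-0.44), which helps to add the second sugar. The last was DPM3 (-0.35), a subunit of the enzyme that makes dolichol-bound mannose. Only NUS1 (-0.23), needed to make dolichol, fell in KMS-11/Cfz, 4.17% of the list, where 1.94% of all genes fell. The change of ALG3 differed between the lines (-0.53, adjusted p = 0.00724), as did those of ALG14 (-0.38, adjusted p = 0.0342) and DOLPP1 (-0.41, adjusted p = 0.0197). These were 3 of the 24 (12.5%), where 2.74% of all genes were lower by this test. Of the 5 other oligosaccharyltransferase subunits, KRTCAP2 (-0.26) and TMEM258 (-0.21) fell in KMS-34/Cfz (40%). Of the 11 enzymes that trim the chain, MAN1C1 (-0.39), MAN2A1 (-0.30) and MAN1A2 (-0.27) fell there (27.3%), again against 4.69% of all genes.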

How the data were processed

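RNA of 12 samples (4 groups of 3) was hybridised to Affymetrix U133 Plus 2.0 arrays of human probe sets. The deposited table holds log2 values that the authors made with RMA (version not given in the sources used here) and that are centred for each probe set, from -7.75 to 8.64, with array medians from -0.02 to 0.01. RMA gives all arrays the same distribution, so a change is relative to the other genes, and what the values were centred on is not stated. Of 54613 probe sets, 41091 name 1 gene in the platform annotation, 1801 several and 11721 none. Symbols were updated through gene numbers in RefSeq, where 41037 matched.

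All probe sets that name a gene alone were averaged, and 19775 genes entered 1 fit in limma 3.58.1 (R 4.3.3; lmFit, contrasts.fit and eBayes) with 4 group means. Contrasts were resistant against parental cells in each line, their mean, their difference, and parental KMS-34 against parental KMS-11. P-values are two-sided and Benjamini-Hochberg adjusted over all genes (over all probe sets for single probe sets), with a threshold of 0.05. The fit was also run on simulated data in which each gene had 1 spread for all 4 groups. Such data cannot show how groups of unequal scatter affect the calls. No filter on dim probe sets was possible without levels. The table has 0 columns of other samples.

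The paper states no test for single genes. Any member could be named, and of each list of partner genes up to 4 per comparison with the largest change past the threshold. The members and lists were chosen with earlier results of these data known. Alternatives were each line fitted alone, the replicate block, aligned medians, cyclic loess, robust eBayes, array weights, the probe set of largest variance, no _x_at probe sets, a threshold of 0.01 and each array left out. The joint omission of 2 arrays and the test of single probe sets were added after seeing the data. Neighbours are the 20 measured genes nearest in RefSeq order, fewer where other members lay among them. Promoter windows are those of RefSeq (GRCh38.p14). Tables and figures used Python 3.11.15, pandas 2.3.3, numpy 2.4.6 and matplotlib 3.10.9.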

Additional observations from a re-analysis of the deposited data

Results flagged for a closer look

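For 3 of the 47 members the change in resistant cells differed between the lines by the test of the difference itself. This was the case for 1274 of all 19775 genes, a like share. SEC31A differed by -0.45 on the log2 scale (the KMS-34 change minus the KMS-11 change), falling in KMS-34/Cfz with KMS-11/Cfz near its parental line. SRP72 differed by -0.28, in the same sense. SEC23A differed by 0.42, with opposite signs in the lines, although neither change passed by itself. Of the 12 fits that left out 1 array, SEC31A kept the call of a difference in 12, SEC23A in 3 and SRP72 in 1. Neither SRP72 nor SEC23A had a probe set past this test alone. With 3 arrays in a group, single arrays were not tested as outliers.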

How the results depend on the processing

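Counts of members past the test are given as KMS-11/Cfz, then KMS-34/Cfz, then the mean of both lines, then the difference between the lines, and stood at 8, 14, 20 and 3. With only the 2 groups of a line fitted, the first became 18 and the second 4, and the mean and the difference have no such fit. Array weights gave 24 in KMS-11/Cfz and 20 for the difference, and cyclic loess, which on centred values fits against an average that is no level, gave 6 for the difference. The probe set of largest variance gave 9 in KMS-34/Cfz, with SAR1B risen (0.37), and 12 for the mean. An adjusted p threshold of 0.01 gave 2, 7, 12 and 1, and aligned array medians gave 1 for the difference. Leaving out 1 array gave 2 to 12 in KMS-11/Cfz, 10 to 13 in KMS-34/Cfz, 15 to 20 for the mean and 1 to 4 for the difference. Leaving out replicate 1 of KMS-34/Cfz and KMS-34 together, chosen after seeing the data, gave 14 in KMS-11/Cfz and 6 for the difference. Between the parental lines the count was 31 and stayed within 30 to 34. The share of all genes called under each alternative was not computed, so these counts cannot be set against it. The cause of these shifts was not tested.

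With the replicate number as a block the counts were 7, 15, 20 and 1. Same-numbered arrays did not all deviate together (r of -0.03, 0.12 and 0.03 in KMS-11, and 0.52, 0.34 and 0.07 in KMS-34), so the numbers were not taken to pair them.

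Of 547 recomputed values of called members, 396 kept the call, 151 lost it and 0 changed sign. SSR1 in KMS-11/Cfz and SRP72, SRPRB, SEC31A and SEC24C in KMS-34/Cfz kept it under all 22 alternatives that gave them a value, and SEC31A under all 21 for the difference. Under array weights COPZ1, MCFD2, SAR1B and SEC23A rose in KMS-34/Cfz. Signal over background could not be read from centred values, and 3 arrays in a group limit the precision.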

Other observations

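Of 17 measured regulators of the secretory pathway, 3 fell in the KMS-11 derivative and 5 in the KMS-34 derivative, where 1.94% and 4.69% of all genes fell, and 0 rose by limma. At an unadjusted p under 0.05, 4 were lower and 0 higher in the former, against 6.93% and 6.48% of all genes. In the latter 6 were lower and 2 higher, against 10.7% and 11.1%. CREB3L4, a membrane-bound transcription factor of the ER, fell in both (-0.54 and -0.31, adjusted p = 0.00421 and 0.0456). Its relative CREB3L2 (-0.32) and ERN1, the ER stress sensor that activates XBP1 (-0.33), fell in KMS-11/Cfz, and both changes differed between the lines (0.45 and 0.36 for the KMS-34 change minus the KMS-11 change, adjusted p = 0.0126 and 0.0163). ATF6 (-0.36), PRDM1 (-0.33), IRF4 (-0.32) and SREBF2 (-0.25) were the other falls in KMS-34/Cfz. PRDM1 and IRF4 also belong to the plasma cell markers below, as does XBP1, which passed in neither derivative.

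Of 29 COPII, tethering and SNARE genes 0 passed in KMS-11/Cfz by limma (1 lower and 1 higher at an unadjusted p under 0.05), and BET1, a SNARE of ER to Golgi transport, rose in KMS-34/Cfz (0.34, adjusted p = 0.00793). Of 16 COPI, ARF and retrograde genes 0 passed in KMS-11/Cfz by limma (0 at an unadjusted p under 0.05), and RINT1 (0.37) and ARF5 (0.30) rose in KMS-34/Cfz. Of 18 further p24 and ERGIC cargo receptors, ERGIC1 fell in KMS-11/Cfz (-0.29) and TMED9 in KMS-34/Cfz (-0.34), each 5.56% of the list. Among all genes 1.94% fell and 1.63% rose in KMS-11/Cfz, and 4.69% and 5.4% in KMS-34/Cfz. The single calls of TMED9 and of BET1 (3.45% of its list) were near these shares. At an unadjusted p under 0.05 by limma, 6.93% of all genes were lower and 6.48% higher in KMS-11/Cfz.

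Of 10 plasma cell markers, SLAMF7 (-0.97) and MZB1 (-0.50) fell in KMS-11/Cfz, where 1.94% of all genes fell and 1.63% rose. SLAMF7 (-0.995), PRDM1 and IRF4 fell and JCHAIN rose (0.71) in KMS-34/Cfz, where 4.69% of all genes fell and 5.4% rose. CD38 stood at 0.44 in KMS-11/Cfz (adjusted p = 0.0802) and 0.34 in KMS-34/Cfz (adjusted p = 0.114), and rose in the mean of both lines (0.39, adjusted p = 0.0156). Of the markers of other cells, BACH2 rose (0.72) among 7 of B cells and CD14 fell (-0.32) among 6 of monocytes in KMS-34/Cfz, and 0 of 8 of T and NK cells and 0 of 6 of stromal cells passed there by limma (0 at an unadjusted p under 0.05 in either list). In KMS-11/Cfz 0 of these 4 lists had a marker past the test (1 B cell marker was higher at an unadjusted p under 0.05). At that p 6.93% of all genes were lower and 6.48% higher in KMS-11/Cfz, and 10.7% and 11.1% in KMS-34/Cfz. Lists of 6 to 8 genes are too short to set 0 or 1 calls against such shares. The part of the markers in the changes of the ER genes was not tested.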
